A study of Mus musculus with 4 samples.

Results

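The 10 genes described here are ones that NF-kB is known to induce or that form its core, measured across the cell classes of a mouse liver single-cell series: the adhesion molecules Icam1 and Vcam1, the inhibitors Tnfaip3, Tnip3 and Nfkbia, the subunits Nfkb1, Nfkb2 and Relb, and the targets Birc3 and Tnfaip2. The members were named by symbol, and all 10 of 10 were found in the table of 50766 genes shared by the 4 count matrices. Cells labelled as biliary epithelial cells (BECs), which line the bile ducts, came from livers of mice with the genotype Sox9EGFP, given for all 4 mice; strain and age are not in the labels. Sham surgery was done on 2 mice and ligation of the bile duct (BDL, which blocks the flow of bile) on 2 others, each sampled 7 days later. Each mouse gave 1 library (n = 2 in each group), and the replicate numbers follow the order of the samples and pair nothing.

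NF-kB is a family of transcription factor dimers held inactive in the cytoplasm by inhibitor proteins. Tumour necrosis factor, interleukin 1 and bacterial products release the canonical dimers, while a slower, non-canonical route acts through Nfkb2 and Relb. Active dimers induce adhesion molecules and chemokines that draw leukocytes to an inflamed tissue, and they also induce their own inhibitors, which ends the response. Biliary epithelium is known to take up such an inflammatory state in cholestasis.

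The promoter sequences shown first are those of the 4 members in which a match to the family's binding motif was found; in BEC-like cells 2 of these members (Tnfaip3 and Tnip3) were later called higher and 2 (Nfkbia and Nfkb2) were not called. RefSeq (GRCm38.p6) promoters, 250 bases before to 50 bases after a start site, were matched by symbol for 7 of 10 members, with 10 promoters among them. The kappa-B consensus, a motif of 10 bases searched on both strands, was found in 6 of those 10 promoters and in 4 of the 7 members. Of all 32851 promoters in the table, 2.46% held it, and of all 27025 genes 2.79% had a promoter that did. Each sequence below runs 5′ to 3′ on the gene's strand, with the kappa-B match in capitals. The Tnfaip3 window is chr10:19015361-19015660 on the minus strand, the Tnip3 window chr6:65590148-65590447 on the plus strand, the Nfkbia window chr12:55492598-55492897 on the minus strand, and the Nfkb2 window chr19:46304487-46304786 on the plus strand.
Tnfaip3: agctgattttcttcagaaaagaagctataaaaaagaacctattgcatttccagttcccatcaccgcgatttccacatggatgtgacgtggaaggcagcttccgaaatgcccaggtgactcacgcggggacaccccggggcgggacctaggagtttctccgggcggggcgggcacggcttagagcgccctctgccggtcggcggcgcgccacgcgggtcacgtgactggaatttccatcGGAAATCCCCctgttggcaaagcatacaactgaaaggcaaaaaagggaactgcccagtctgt
Tnip3: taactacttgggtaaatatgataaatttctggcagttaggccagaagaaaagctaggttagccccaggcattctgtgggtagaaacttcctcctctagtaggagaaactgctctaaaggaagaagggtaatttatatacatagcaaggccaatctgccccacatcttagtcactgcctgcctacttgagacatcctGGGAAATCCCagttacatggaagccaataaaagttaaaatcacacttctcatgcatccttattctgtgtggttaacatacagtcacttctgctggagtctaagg
Nfkbia: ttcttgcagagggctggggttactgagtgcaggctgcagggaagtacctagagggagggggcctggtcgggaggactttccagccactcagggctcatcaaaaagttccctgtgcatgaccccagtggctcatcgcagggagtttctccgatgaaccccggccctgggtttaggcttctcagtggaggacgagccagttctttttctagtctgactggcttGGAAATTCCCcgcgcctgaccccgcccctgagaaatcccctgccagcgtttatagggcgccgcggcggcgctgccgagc
Nfkb2: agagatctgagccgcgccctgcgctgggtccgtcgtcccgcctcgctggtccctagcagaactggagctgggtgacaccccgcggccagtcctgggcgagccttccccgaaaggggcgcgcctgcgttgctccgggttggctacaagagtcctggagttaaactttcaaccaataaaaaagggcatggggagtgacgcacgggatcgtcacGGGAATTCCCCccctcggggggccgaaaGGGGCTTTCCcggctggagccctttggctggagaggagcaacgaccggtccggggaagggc

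In these windows the match began 12 bases before the start site in Tnfaip3, 54 bases before it in Tnip3 and 29 bases before it in Nfkbia. The Nfkb2 window held 3 matches, of which 2 overlapped, beginning 39, 38 and 11 bases before the start. The other 2 listed Nfkb2 starts also had a match, but their windows overlap and share a site, so the promoters with a match are not all separate. The windows of Icam1, of a second Tnfaip3 start and of Birc3 and Tnfaip2, which were both called higher, held no match to these letters, which says nothing of sites elsewhere.

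The group of 2 libraries is given inconsistently in the deposited files. Each deposited cell table carries a group name of its own, which is BDL for sham replicate 2 and sham for BDL replicate 2; the sample labels were used throughout. BDL replicate 2 also stood apart in Xist, at 1918 CPM (counts per 1e6 UMIs) against 7.72 to 10.3 in the other 3 libraries. The BDL libraries thus differed widely from each other in Xist, while the sham libraries were alike (10.3 and 9.78 CPM). The part of this difference in the contrasts of BDL with sham was not tested. Libraries held 2089 to 4065 cells. The median depth per cell in transcripts (unique molecular identifiers, UMIs) was 3260 and 2610 for sham and 7058 and 7793 for BDL. No cell barcode was shared between libraries (0 shared). BEC-like cells, clusters named from biliary markers, made up 81.6% to 94.4% of each library, 10990 cells in all, and all 11 biliary markers were detected in them in every library. Different clusters held these cells in the 2 groups: clusters 2, 4, 5 and 7 in sham and clusters 1, 3, 6, 9 and 10 in BDL. The 2 libraries with a mismatched name fell with the group of their sample label in this split. Cluster 2 held 34.1% of the BEC-like cells of sham replicate 2 and 0.0787% of those of BDL replicate 2. Cluster 1 held 0.0386% and 39.0% of them. Why the names differ was not tested.

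In BEC-like cells, 6 of the 10 members rose after BDL and 0 fell. Tnfaip2, Tnip3, Tnfaip3 and Vcam1 rose 3.17-fold to 6.20-fold, and Nfkb1 and Birc3 rose less. Icam1, Nfkbia, Nfkb2 and Relb did not pass the test. Of all 15978 genes tested, 27.2% were called, 14.2% higher and 12.9% lower in BDL, with an edgeR adjusted p under 0.05 on UMIs summed per library. The median log2 fold change was 0.58 over the members and -0.02 over all genes tested. In the same sums, the summed hepatocyte markers lay at 1535 and 1608 CPM in sham and 339 and 359 CPM in BDL (8 markers), and the mesenchymal markers at 108 and 106 CPM against 18.9 and 32.1 CPM (10 markers, none at 0). Endothelial markers were at 48.8 and 47.6 CPM in sham and 26.6 and 15.8 CPM in BDL (10 markers), and macrophage markers at 42.6 to 45.1 CPM in all 4 libraries. Mesothelial markers were higher in BDL, at 15.8 and 27.4 CPM in sham and 31.0 and 58.2 CPM in BDL (5 markers). The part of these in the results was not tested.

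Of the adhesion molecules, Vcam1 encodes a ligand of the integrin pairs that contain Itga4. Its level in BEC-like cells was 604 and 800 CPM (scaled by TMM, as all CPM in the fits) in the sham libraries and 2271 and 2176 CPM in the BDL libraries. Both BDL libraries lay above both sham libraries, by 1.66 on the log2 scale (SE 0.16, edgeR adjusted p = 0.00114). The call held in each fit with 1 library left out. Icam1, the ligand of the integrins built on Itgb2, was at 339 and 410 CPM in sham and 515 and 453 CPM in BDL. The groups did not overlap, but the difference of 0.37 (SE 0.14) did not pass the test (edgeR adjusted p = 0.0914). It was uncalled in 19 of 22 alternatives with a test, the smallest difference being 0.049 in the cells of sublibrary 3 alone, 1 of 8 sets of cells that the barcodes' suffixes mark in each library (adjusted p = 0.853). It passed without BDL replicate 2 (0.47, edgeR adjusted p = 0.0348), with DESeq2 (0.45, adjusted p = 0.0256) and without a filter on low counts (0.50, adjusted p = 0.00242).

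**Figure D1:**
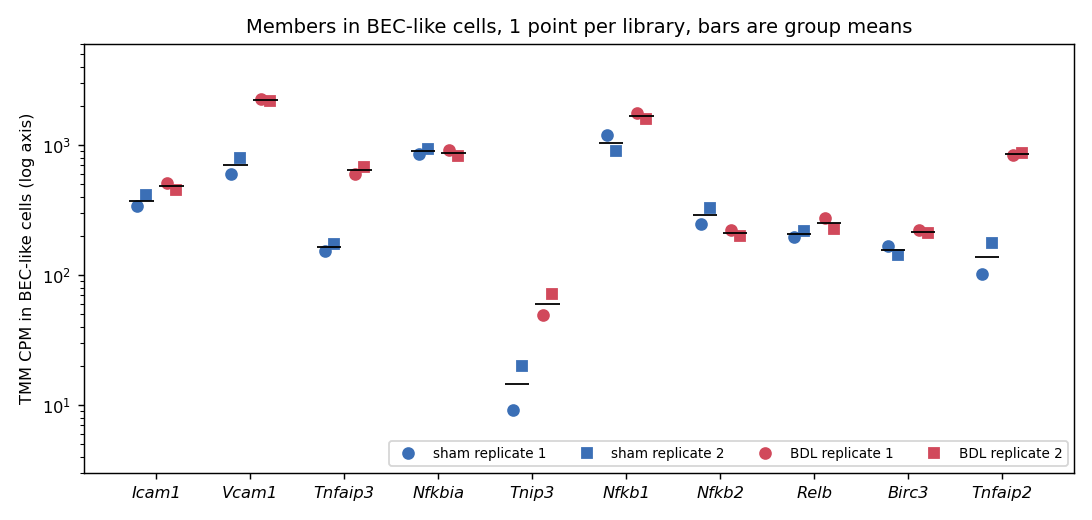
Level of each member in BEC-like cells, in CPM scaled by TMM on a log axis. Each point is 1 library (blue sham, red BDL; circles replicate 1, squares replicate 2) and bars are group means; levels are to be read within a gene, since they are not per length. Vcam1, Tnfaip3, Tnip3 and Tnfaip2 show the widest gaps, and Nfkbia overlaps.

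Among the inhibitors, Tnfaip3 encodes a ubiquitin-editing enzyme that shuts down signalling from the tumour necrosis factor receptor. It was measured at 153 and 174 CPM in sham and at 604 and 681 CPM in BDL. The BDL libraries were higher by 1.98 on the log2 scale (SE 0.13, edgeR adjusted p = 0.000381). Tnip3, which encodes a protein that binds the Tnfaip3 product, had the lowest UMI totals of the members, namely 95 and 159 UMIs in sham and 708 and 2257 UMIs in BDL. Its level was 9.22 and 19.9 CPM in sham and 48.9 and 71.2 CPM in BDL. This is a rise of 2.07 (SE 0.35, edgeR adjusted p = 0.00721), and the sham libraries were the further apart in proportion. The call was lost in sublibraries 1, 6 and 8 alone (1.24 to 1.54, adjusted p up to 0.120). Nfkbia encodes the classical inhibitor that holds NF-kB in the cytoplasm and is itself a fast target. It was measured at 852 and 937 CPM in sham and at 915 and 827 CPM in BDL, so the groups overlapped. The fitted difference was -0.04 (SE 0.12, edgeR adjusted p = 0.843), and its sign turned, with no call, in 6 of 22 alternatives with a test. All 3 inhibitors carried a kappa-B match near a start site, and 2 of them rose while Nfkbia showed no detectable change. Birc3 and Tnfaip2 were called higher with no match. Whether a match goes with the change after BDL was not tested.

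Of the 3 subunits among the members, 1 was called, beside 27.2% of all genes tested. Nfkb1, the precursor of a canonical DNA-binding subunit, was at 1189 and 903 CPM in sham and 1775 and 1599 CPM in BDL. It rose by 0.69 (SE 0.16, edgeR adjusted p = 0.0234), a call lost without sham replicate 2 (0.53, adjusted p = 0.0901). Nfkb2, the precursor of the non-canonical subunit, was at 247 and 329 CPM in sham and 223 and 200 CPM in BDL. Both BDL libraries lay below both sham libraries, and the difference of -0.45 (SE 0.16) did not pass (edgeR adjusted p = 0.0788). It passed, lower in BDL, in 5 of 22 alternatives with a test: without BDL replicate 1 (-0.50, adjusted p = 0.00761), with a filter of 10 CPM (-0.53, adjusted p = 0.0414) and in sublibraries 2, 3 and 4 alone (-0.55 to -0.70). Relb, the usual partner of the processed Nfkb2 product, was at 195 and 217 CPM in sham and 274 and 227 CPM in BDL. Its difference of 0.28 (SE 0.13) did not pass (edgeR adjusted p = 0.159). It passed in 2 of 22 alternatives with a test, without BDL replicate 2 (0.42, adjusted p = 0.0421) and without a filter on low counts (0.41, adjusted p = 0.0212).

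Of the remaining targets, Tnfaip2, a cytoplasmic protein known as inducible by tumour necrosis factor, showed the widest difference of the 10 members. It was at 102 and 175 CPM in sham and 840 and 873 CPM in BDL. This is 2.63 on the log2 scale (SE 0.25, edgeR adjusted p = 0.000994). Birc3 encodes a ubiquitin ligase of the receptor complex that protects cells from death. It was at 168 and 143 CPM in sham and 224 and 209 CPM in BDL, a rise of 0.48 (SE 0.12, edgeR adjusted p = 0.0307). That call was lost without sham replicate 1 (0.60, adjusted p = 0.0718) and without sham replicate 2 (0.39, adjusted p = 0.176). In the fits with 1 library left out, 4 to 8 members were called. The number of all genes called also moved widely in these fits, as given at the end, so this count is not read alone. In the pair of libraries whose cell tables and labels give the same group, the log2 differences were 1.91 for Vcam1, 1.99 for Tnfaip3, 2.39 for Tnip3, 3.05 for Tnfaip2, 0.58 for Nfkb1 and 0.42 for Birc3, with no replicate check.

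The share of BEC-like cells with at least 1 UMI was compared after each cell was thinned to 1000 UMIs, because BDL cells were deeper. Shallower cells were left out, 85 and 107 in the sham libraries and 0 in the BDL libraries. Vcam1 was found in 26.7% (exact 95% Clopper-Pearson interval 25.0% to 28.5%) and 26.8% (25.1% to 28.6%) of sham cells. In the BDL libraries it was found in 72.4% (70.3% to 74.3%) and 72.9% (71.4% to 74.3%). In mesenchymal-like cells at the same depth the share was 31.5% and 22.1% in sham and 43.7% and 42.9% in BDL. Tnfaip3 was found in 12.7% and 12.8% of sham BEC-like cells and in 36.8% and 38.8% of BDL cells.

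Tnfaip2 was found in 5.68% and 7.72% of sham and 40.2% and 44.0% of BDL BEC-like cells, against 2.21% and 2.13% in sham and 2.82% and 8.27% in BDL mesenchymal-like cells. Tnip3 stayed rare, at 0.868% (0.545% to 1.31%) and 0.764% (0.461% to 1.19%) in sham and 3.46% (2.70% to 4.36%) and 4.54% (3.90% to 5.25%) in BDL. In mesenchymal-like cells Tnip3 had 0 of 181 and 0 of 375 cells in sham, which allow shares of up to 1.66% and 0.800%, 0 of 71 cells in BDL replicate 1, which allows up to 4.23%, and 1 of 133 cells in BDL replicate 2. These limits are 3 cells of each total and hold for cells with a UMI at this depth, not for cells that express the gene. Icam1 was found in 26.0% and 28.4% of sham and 35.2% and 33.3% of BDL BEC-like cells. Nfkbia was found in 50.5% and 53.1% of sham and 55.0% and 51.9% of BDL cells, again overlapping. Thinned to 2000 UMIs its groups did not overlap, with means of 70.7% (SD 1.24) in sham and 75.6% (SD 2.52) in BDL. Nfkb2 was found in 20.7% and 26.6% of sham and 18.5% and 18.1% of BDL cells.

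With 2 libraries against 2, the exact two-sided permutation test cannot go below p = 0.33, so it decides nothing here. The thinned shares are given as a description. At 1000 UMIs those of Nfkbia overlapped between the groups (exact permutation p = 0.67). Before thinning the shares were higher and further apart: Vcam1 was found in 42.5% and 38.8% of sham and 94.5% and 95.6% of BDL cells, at median depths of 3297 and 2755 UMIs in sham and 7130 and 7876 UMIs in BDL BEC-like cells. Nfkb2 turned direction without thinning, at 52.2% and 52.8% of sham and 70.6% and 72.1% of BDL cells. At least 3 of the 10 members were found together in 40.9% and 42.7% of thinned sham cells and in 75.6% and 76.5% of thinned BDL cells. These intervals cover counting error only.

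**Figure D2:**
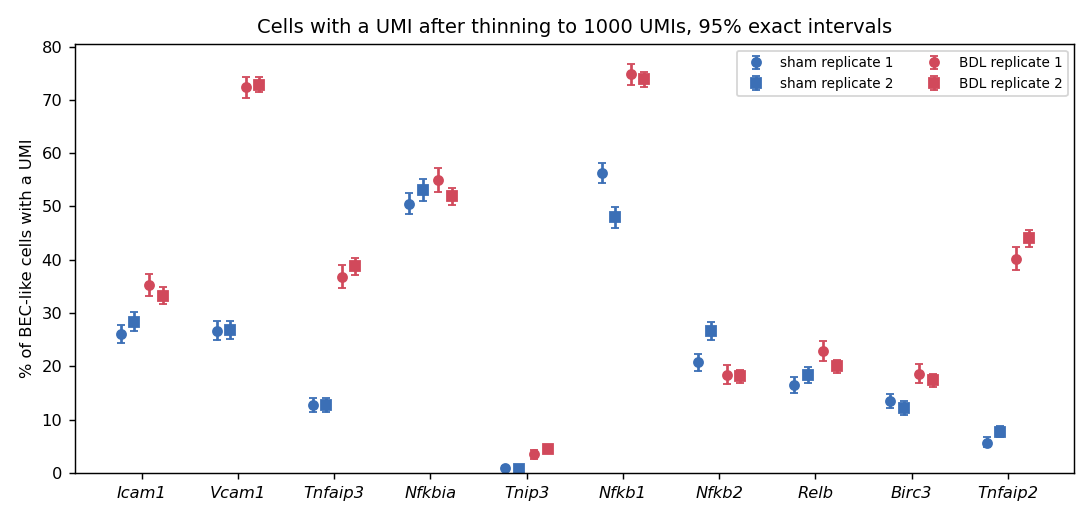
Percent of BEC-like cells with at least 1 UMI of each member after thinning each cell to 1000 UMIs. Points are libraries (blue sham, red BDL) and bars are exact 95% intervals for counting error; Vcam1 lies at 26.7% and 26.8% in sham and at 72.4% and 72.9% in BDL.

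Members were uneven among the BEC-like clusters of a single library. The ratio of the highest to the lowest cluster was larger in both sham libraries than in both BDL libraries for Vcam1, Tnfaip3, Tnfaip2, Nfkb1, Nfkb2 and Nfkbia, but not for Icam1, Birc3 and Relb; Tnip3 has no such ratio in sham replicate 2, where its lowest cluster was at 0 UMIs. The highest sham cluster of Vcam1, Tnfaip3, Tnfaip2, Nfkb1, Nfkb2 and Nfkbia was cluster 6, with only 21 and 20 sham cells. Some BDL extremes came from cluster 5, with 34 and 20 BDL cells. The ratios thus rest in part on few cells. Clusters were formed from all genes, members included, and Tnip3 is among the 10 leading genes of cluster 6 and Tnfaip2 among those of cluster 1, so these levels are a description with no test. In sham, Vcam1 was lowest in cluster 4, at 66.4 and 80.6 CPM of the cluster's own UMIs. Cluster 7 followed at 145 and 212 CPM and cluster 2 at 473 and 298 CPM. Cluster 5, whose leading genes include the biliary markers Krt19 and Tspan8, reached 1943 and 2105 CPM. It held 19.5% and 26.0% of the sham BEC-like cells and 57.9% and 76.5% of their Vcam1 UMIs. In the 34 and 20 BDL cells of cluster 5, Vcam1 lay below both sham values, at 1732 CPM (exact Poisson 95% interval 1532 to 1950, which overlaps that of sham replicate 1 at 1880 to 2008) and 1202 CPM (999.8 to 1433). Tnfaip2 in this cluster was at 440 and 503 CPM in sham. In BDL it was at 235 CPM (165 to 323, 37 UMIs) and 96.9 CPM (46.5 to 178, 10 UMIs). Clusters 5 and 6 were the only BEC-like clusters with at least 20 cells in all 4 libraries.

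Cluster 6, with the mucosal gene Dmbt1 at its head, held 0.802% and 0.771% of sham and 13.2% and 21.1% of BDL BEC-like cells. Tnip3 was concentrated in it: 282 and 583 CPM in sham (21 and 20 cells) and 219 and 255 CPM in BDL. Exact Poisson 95% intervals were 177 to 426 and 432 to 768 CPM in sham and 199 to 241 and 243 to 267 CPM in BDL. Since Tnip3 is among the genes that define the cluster, these levels say nothing of a difference between groups. The cluster held 63.0% and 78.8% of all Tnip3 UMIs of BDL BEC-like cells. In sham, most Tnip3 UMIs (72.6% and 63.5%) came from cluster 5. Vcam1 in cluster 6 was at 2369 and 2354 CPM in sham and 2586 and 2403 CPM in BDL.

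Nfkbia in cluster 6 was at 1869 and 1503 CPM in sham and 927 and 793 CPM in BDL. Across the BDL clusters with at least 20 cells, the highest Vcam1 level was in cluster 1 (3268 and 2815 CPM), which is led by Cxcl5, Nos2 and Ccl20. Tnfaip2 spanned the widest range after Tnip3. In sham replicate 1 it ran from 7.00 CPM in cluster 7 to 1024 CPM in cluster 6, and in sham replicate 2 from 8.48 CPM in cluster 4 to 1270 CPM in cluster 6. In BDL replicate 1 it ran from 161 CPM in cluster 9, and in BDL replicate 2 from 96.9 CPM in cluster 5 (10 UMIs), to 1510 and 1367 CPM in cluster 1. Cycling cells (cluster 10, led by Mki67 and Top2a) had 1778 and 2042 CPM of Vcam1. Nfkb2 and Nfkbia were the most even in BDL replicate 2, with ratios of 1.55 and 1.32 between the highest and the lowest cluster.

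**Figure D3:**
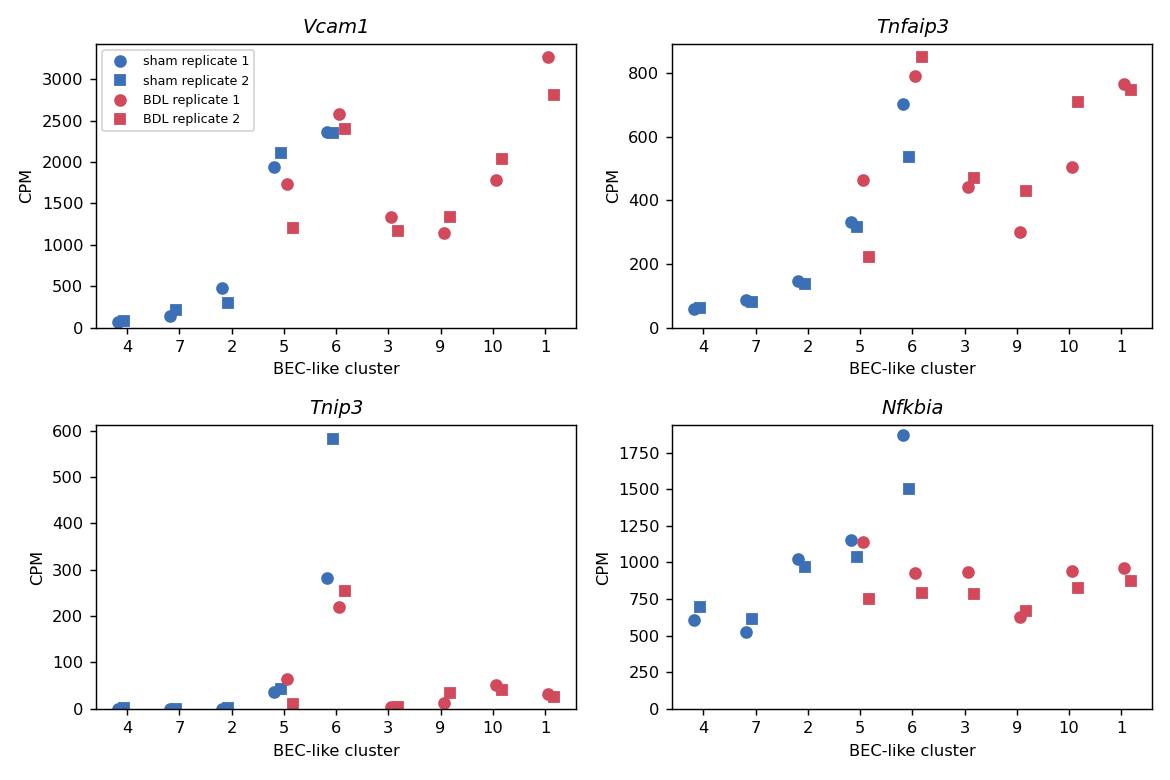
Levels of Vcam1, Tnfaip3, Tnip3 and Nfkbia in BEC-like clusters, in CPM of the cluster, for libraries with at least 20 cells of it. Points are libraries (blue sham, red BDL) and clusters are ordered from those mostly of sham to those mostly of BDL; Tnip3 stands out in cluster 6 in all 4 libraries.

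Genes around the members were read from lists of the pathway. Over all genes tested the shares are the same 27.2% called, 14.2% higher and 12.9% lower. The counts are a description and include genes that passed the filter on low counts only through the group where they were high. Of 7 other subunits and inhibitors of the IkB family, 2 rose and 0 fell, namely Nfkbid (1.26) and Rel (0.45) on the log2 scale; the list's median was 0.30. Of 21 kinases and adaptors, 6 rose and 1 fell. They included the kinases Ikbke (1.84) and Ikbkb (1.39) and the interleukin receptor kinase Irak2 (0.81), while the kinase Ripk1 fell by 0.78. Of 12 negative regulators, 5 rose and 2 fell: Tnip1, a Tnfaip3 partner, rose by 0.83 and the ribonuclease gene Zc3h12a by 0.70, and Rnf11 fell by 0.53 and Tnip2 by 0.45. Of 12 receptors, 5 rose and 1 fell. Tnfrsf1b, a receptor of tumour necrosis factor, rose from 18.9 and 28.5 CPM to 99.2 and 120 CPM (2.22, SE 0.21, edgeR adjusted p = 0.000982). The interleukin receptor Il1r1 rose by 1.21 and Tnfrsf11a by 1.14, and Tnfrsf12a fell by 0.42.

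Of 10 ligands, 6 passed the filter on low counts, of which 3 were called higher and 1 lower. Tnf, the classical inducer, rose from 11.1 and 7.64 CPM to 73.6 and 54.0 CPM (2.75, SE 0.23, edgeR adjusted p = 0.000715). Ltb, a ligand of the non-canonical route, rose by 2.58, and Il18 fell by 0.89. Il1a was called higher (3.41) from 5 and 4 UMIs in sham and 34 and 253 in BDL. It passed the filter on low counts only through BDL, so this is not read as a rise. Of 21 other targets, 19 were tested, 14 rose and 2 fell, with a median of 1.81. The chemokine Ccl2 rose from 17.9 and 12.5 CPM to 527 and 442 CPM (4.98, SE 0.21). Nos2 rose by 5.79 and the growth factor gene Csf1 by 2.37, while Irf1 fell by 1.61 and Gadd45b by 1.52. Of 18 other adhesion molecules, 13 were tested, 4 were called higher and 1 lower. Cd44 (2.64), Mcam (1.63) and Cd47 (0.92) had the smallest adjusted p. Esam, called lower at -1.58, had 22 and 16 UMIs in sham and 11 and 20 in BDL. It passed the filter on low counts only through sham, so its call is not read as a fall. Madcam1, the fourth called higher, had 0 UMIs in both sham libraries and 23 and 53 in BDL. It passed the filter on low counts only through BDL, so its call is not read as a result. Ripk1, Tnip2, Tnfrsf12a, Il18, Irf1, Gadd45b, Esam and Madcam1 were named after their values were seen.

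Of 7 integrin genes whose products bind those of Icam1 and Vcam1, 5 were tested in BEC-like cells. The widely expressed Itgb1 rose by 0.46 and Itgb7 fell by 1.36. Itgal was called lower (-2.56) from 14 and 12 UMIs in sham and 6 and 4 in BDL. It passed the filter on low counts only through sham, so this is not read as a fall. Summed over the 4 libraries, BEC-like cells held 29666 UMIs of Itgb1 (459 CPM), but only 6 UMIs of Itgb2 and 12 of Itga4, which is 0.0928 and 0.186 CPM. The 86 macrophage-like cells held 64 UMIs of Itgb2 and 47 of Itga4, which is 155 and 114 CPM, and 363 CPM of Itgb1. These sums are over cells of all libraries and carry no test.

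In mesenchymal-like cells (71 to 421 cells per library) the adhesion molecules moved apart. Icam1 fell and Vcam1 rose, and 7 further members that were tested did not pass, so 2 of 9 were called. Over all 8778 genes tested in this class, 5.18% were called, 1.98% higher and 3.2% lower in BDL. Icam1 was at 883 and 1095 CPM in sham and 430 and 288 CPM in BDL, a fall of 1.47 on the log2 scale (-1.47, SE 0.28, edgeR adjusted p = 0.0214). Vcam1 was at 415 and 364 CPM in sham and 766 and 808 CPM in BDL, a rise of 1.02 (SE 0.23, edgeR adjusted p = 0.0382). Nfkb1 was at 2019 and 1475 CPM in sham and 2748 and 3435 CPM in BDL, with no overlap, and its difference of 0.82 (SE 0.30) did not pass (edgeR adjusted p = 0.155). Birc3 overlapped, at 499 and 305 CPM in sham and 312 and 175 CPM in BDL. Tnip3 was not tested, with 1, 1, 0 and 5 UMIs in the 4 libraries.

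With 1 library left out, Icam1 ran from -1.78 to -1.20 and Vcam1 from 0.90 to 1.12, while the calls depended on the libraries kept. Icam1 kept its direction but lost its call without BDL replicate 2 (-1.20, adjusted p = 0.160). Vcam1 lost its call without sham replicate 2 (0.90, adjusted p = 0.135), without BDL replicate 1 (1.05, adjusted p = 0.0604) and without BDL replicate 2 (0.98, adjusted p = 0.181). Other members gained a call when a library was left out: Nfkb1 without sham replicate 1 (1.08, adjusted p = 0.0495), Birc3 without sham replicate 2 (-1.07, adjusted p = 0.0328) and Tnfaip3 without BDL replicate 1 (1.27, adjusted p = 0.0327). Different clusters also held the class. Cluster 8, led by the stellate-cell genes Reln and Lrat, and cluster 13 together took most of the sham cells, and cluster 12, led by Col1a1, took 60.6% and 82.7% of the BDL cells.

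Icam1 was lower in BDL within cluster 8 as well, at 1221 and 1193 CPM in sham (107 and 321 cells) and 727 and 864 CPM in BDL (27 and 22 cells). In cluster 13 it was at 792 and 784 CPM in sham, and in cluster 12 at 285 and 208 CPM in BDL. For Vcam1, cluster 8 gave 631 and 387 CPM in sham and 706 and 662 CPM in BDL. The BDL libraries thus lay above the sham libraries in it by less than the sham libraries differed from each other. The highest Vcam1 levels of the class were in cluster 12, at 745 and 836 CPM.

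In endothelial-like cells (19 to 122 cells per library), 0 of the 8 members tested were called by edgeR, and 0 by DESeq2; 31 of 2037 genes, 1.52%, were called in the class (0.638% higher and 0.884% lower) and 364 had an unadjusted p under 0.05. Icam1 was at 1367 and 1075 CPM in sham and 705 and 568 CPM in BDL. The groups did not overlap, and the difference of -0.95 (SE 0.34) did not pass (edgeR adjusted p = 0.163). Vcam1 overlapped, at 684 and 981 CPM in sham and 903 and 1403 CPM in BDL. The mix of the class differed between groups: cluster 17, led by Ccl21a and Mmrn1, held 7.5% and 2.46% of its sham cells and 15.8% and 38.2% of its BDL cells. Within cluster 11, which held the rest, Vcam1 was at 570 and 663 CPM of the cluster's UMIs in sham (37 and 119 cells) and at 2142 CPM in BDL replicate 2 (21 cells, exact Poisson 95% interval 1811 to 2514); BDL replicate 1 had 16 cells of it, too few for a value here. Of the 8 members tested, Nfkb2 had the widest difference, at -1.58 (SE 0.49, edgeR adjusted p = 0.109), from 12, 27, 3 and 11 UMIs. Tnip3 and Tnfaip2 did not pass the filter on low counts. Without that filter Tnfaip2 was at 2.25 (edgeR adjusted p = 0.255), from 2, 4, 17 and 10 UMIs.

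**Figure D4:**
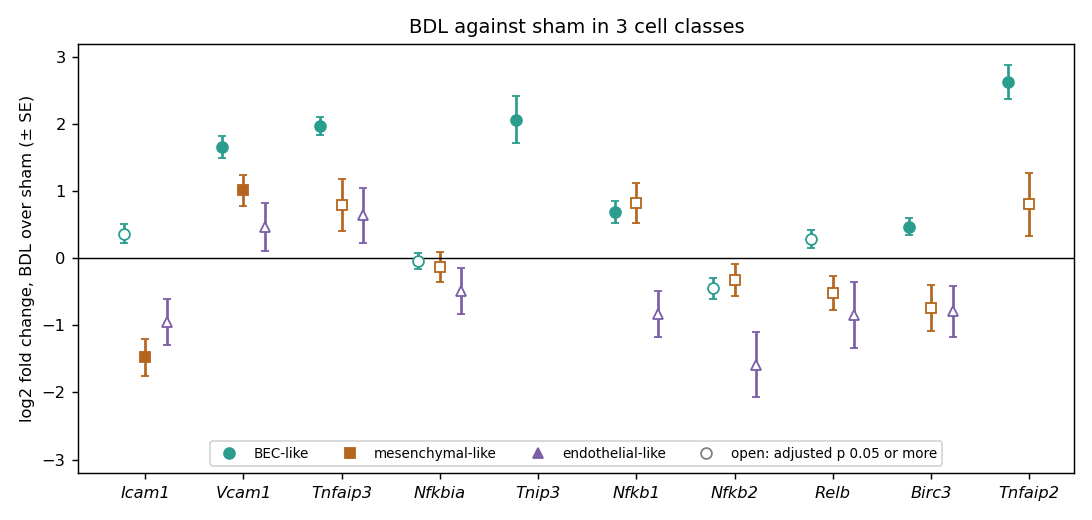
Log2 fold change of each member, BDL over sham, in BEC-like (circles), mesenchymal-like (squares) and endothelial-like cells (triangles), with bars of 1 SE. Filled points passed an adjusted p of 0.05; Icam1 lies at 0.37 in BEC-like, -1.47 in mesenchymal-like and -0.95 in endothelial-like cells.

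Whether the BDL effect differed between classes was tested as an interaction with the library as a block. Against mesenchymal-like cells, 3 of the 10 members had a larger signed effect in BEC-like cells and 0 a smaller one. In size, 2 of them were smaller there: Icam1 was at 0.37 against -1.47 in mesenchymal-like cells, and Birc3 at 0.48 against -0.74. Of 15323 genes tested, 4.18% were called, 2.29% with a larger and 1.89% with a smaller effect in BEC-like cells. The filter took the sums of both classes, and 8778 genes passed in mesenchymal-like cells alone, Tnip3 not among them. The genes tested here thus include ones with few mesenchymal-like UMIs. The difference was 1.86 for Icam1 (SE 0.26, edgeR adjusted p = 0.000981). It was 1.22 for Birc3 (SE 0.30, edgeR adjusted p = 0.0304) and 1.92 for Tnfaip2 (SE 0.51, edgeR adjusted p = 0.0492). The Icam1 call held in each fit with 1 library left out. Birc3 lost it without sham replicate 1 (0.95, adjusted p = 0.191) and without BDL replicate 2 (0.87, adjusted p = 0.356), and Tnfaip2 without sham replicate 1 (1.14, adjusted p = 0.191) and without BDL replicate 1 (1.32, adjusted p = 0.173). Tnfaip3 did not pass at 1.27 (adjusted p = 0.0754), and did without sham replicate 2 (1.33, adjusted p = 0.0106) and without BDL replicate 2 (1.97, adjusted p = 0.0133). For Vcam1 the difference of 0.66 (SE 0.28) did not pass (edgeR adjusted p = 0.256).

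Against endothelial-like cells 0 of 10 members were called by edgeR, with 0.742% of 14014 genes called (0.335% with a larger and 0.407% with a smaller effect in BEC-like cells) and 850 at an unadjusted p under 0.05; no other tool was run on this model. The filter of this fit took the sums of both classes, and 2037 genes passed in endothelial-like cells alone, Tnip3 and Tnfaip2 not among them. The members and genes tested here thus include ones with few endothelial-like UMIs. The Icam1 difference was 1.22 (SE 0.41, adjusted p = 0.211). Nfkb1 was at 1.45 (SE 0.42, edgeR adjusted p = 0.0672) and passed without BDL replicate 2 (2.01, adjusted p = 0.0279).

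The order of BEC-like, mesenchymal-like and endothelial-like cells by level changed with the group, as a description with no test, in CPM of each class. Macrophage-like cells, left out of this order as too few, had 700 and 0 CPM of Icam1 in sham and 380 and 538 CPM in BDL. In sham, Icam1 was highest in endothelial-like (1056 and 702) and mesenchymal-like cells (872 and 1012), which overlapped, and lower in BEC-like cells (359 and 390). In BDL, endothelial-like (551 and 473) and BEC-like cells (510 and 450) overlapped and mesenchymal-like cells were lower (411 and 290). For Vcam1 in sham, BEC-like (639 and 762) and endothelial-like cells (528 and 640) overlapped, above mesenchymal-like cells (410 and 337). In BDL, BEC-like cells had the highest Vcam1 level, taken as whole classes (2249 and 2158). Endothelial-like (706 and 1167) and mesenchymal-like cells (732 and 813) overlapped below them. Endothelial-like cluster 11 alone was at 2142 CPM in BDL replicate 2 (21 cells), near the BEC-like 2158, so this order depends on the mix of each class.

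Macrophage-like cells were too few for a fit (10 to 47 per library). Their Vcam1 level was 297 CPM (exact Poisson 95% interval 162 to 499, 14 UMIs) in sham replicate 1. In sham replicate 2 it was at 0 UMIs (interval up to 234 CPM). In BDL it was 1331 (1089 to 1611) and 1788 (1632 to 1954). Their Tnfaip2 level in BDL was 393 (267 to 558) and 944 (832 to 1067) CPM. BEC-like cells made up most of each library. Whether their transcripts entered the sums of macrophage-like or other classes, as doublets or carried-over RNA, was not tested. Hepatocyte-like cells numbered 2 to 35 per library. Their Icam1 level was 63.5 CPM (27.4 to 125) in sham replicate 2, 121 CPM (55.3 to 229) in BDL replicate 1 and 457 CPM (377 to 548) in BDL replicate 2, so that BDL replicate 1 overlapped the sham interval. Vcam1 was at 15.9 CPM (1.92 to 57.3), 1020 CPM (804 to 1277) and 385 CPM (313 to 470) in the same libraries. Sham replicate 1 had 2 such cells and 0 UMIs of either gene. Sham and BDL cells of this class differed in kind and depth, so these values are no comparison of like cells. At clustering resolution 2, a cluster led by Fgb and Hpx held 0 and 1 cells of the sham and 7 and 35 of the BDL libraries, and another led by Bhmt and Serpina1e held 2 and 31 of the sham and 1 and 0 of the BDL libraries. Median UMIs per cell were 1458 in sham replicate 2 and 7936.5 and 6667 in BDL.

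**Figure D5:**
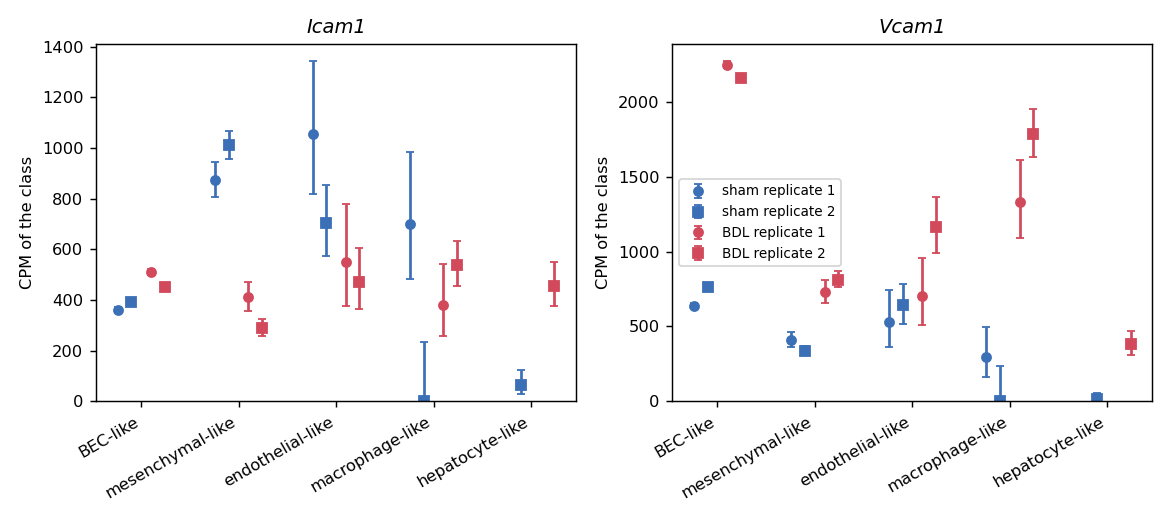
Icam1 and Vcam1 in CPM of each cell class, with exact Poisson 95% intervals for counting error. Points are libraries with at least 10 cells of the class (blue sham, red BDL); Icam1 drops in mesenchymal-like cells (872 and 1012 against 411 and 290) while Vcam1 is highest in BDL BEC-like cells.

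Over the 12 sums of 4 libraries by 3 classes, which share libraries and depth, Pearson's r of the log2 CPM of Icam1 and Vcam1 was -0.29. Among BEC-like clusters both were higher in cluster 5 than in clusters 4 and 7 in sham, where Icam1 was at 673 and 560 CPM, 217 and 305 CPM, and 234 and 276 CPM. In BDL both were highest in cluster 1, with Icam1 at 725 and 597 CPM. Among 6805 genes with a mean of at least 20 CPM, those most like Icam1 were Gm12216 (r = 0.83), H2-Q4 (0.81) and Nuak2 (0.79). Those most like Vcam1 were Anp32b (0.96), Chic2 (0.94) and Pcgf3 (0.93). Of the members, Tnfaip2 (0.84) and Tnfaip3 (0.84) were closest to Vcam1, and Birc3 (0.73) to Icam1.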

How the data were processed

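Single-cell transcript counts from 4 mouse livers were analysed. According to the labels' protocols, the cells were fixed and their RNA barcoded in rounds of splitting and pooling (Parse Evercode, with both oligo(dT) and random hexamer primers). The deposited matrices hold raw UMI counts for each gene in each cell; the reference build is GRCm39 per the submitters' processing notes, and the aligner is not given in the sources used here. Genes are given by symbol, and the GRCm38.p6 promoters were matched by symbol only. Each library was taken as 1 mouse from its library name, which the labels do not state further, and p-values measure only the spread between these libraries.

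Cells under 500 UMIs (7) or over 20% mitochondrial UMIs (10) were removed from 12211. The Scrublet caller in scanpy 1.11.5 called 14 doublets (0.115%), too few for it to have worked; the 14 were removed, leaving 12180, and removing the highest 5% of scores per library was an alternative. From 2000 variable genes, 30 components and 20 neighbours, Leiden (leidenalg 0.10.2) at resolution 1 gave the clusters. Classes were named from marker lists, by a scoring rule set after the data were seen: at least 3 markers, each in 5% of cells and over 2-fold above other cells, and for non-biliary classes at least 50% of the list. Names are rebuilt, not the authors'.

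Counts were summed per library and class. edgeR 4.0.16 (R 4.3.3) was run with TMM, filterByExpr, the quasi-likelihood F test, two-sided, and Benjamini-Hochberg adjustment over all genes tested, with a threshold of 0.05. The interaction had the library as a block. DESeq2 1.42.0 was an alternative. Classes with fewer than 15 cells in a library got sums with exact Poisson intervals. The fits were also run on simulated data, whose outcome is not given here and supports no result. SEs come from the F statistic.

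The members, lists and tests were chosen with earlier results of these data known. Named genes were the 10 members; up to 3 per list with the smallest adjusted p under 0.05 in BEC-like cells; and the 3 most like Icam1 and Vcam1 by Pearson's r over 12 sums. Alternatives were other scaling, filters, resolutions, cell filters, depth thinning, each sublibrary alone and each library left out.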

Additional observations from a re-analysis of the deposited data

Results flagged for a closer look

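For 3 members the response to BDL differed between BEC-like and mesenchymal-like cells by the test of the interaction itself. Of all 15323 genes tested, 4.18% were called, 2.29% larger and 1.89% smaller in BEC-like cells. On the log2 scale the signed BEC-like effect was larger by 1.86 for Icam1 (edgeR adjusted p = 0.000981), by 1.22 for Birc3 (edgeR adjusted p = 0.0304) and by 1.92 for Tnfaip2 (edgeR adjusted p = 0.0492). Icam1 kept its call in all 6 alternatives of this test, Birc3 lost it in 3 of 6 (adjusted p up to 0.356) and Tnfaip2 in 4 of 6 (adjusted p up to 0.191). The mean levels behind Icam1 were 374 and 484 CPM in sham and BDL BEC-like cells and 989 and 359 CPM in mesenchymal-like cells. For Birc3 they were 155 and 216 CPM against 402 and 244 CPM, and for Tnfaip2 138 and 857 CPM against 50.02 and 81.3 CPM (n = 2 libraries in each). Groups of 2 libraries are too small for a test of single outlying libraries.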

How the results depend on the processing

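No paired analysis was possible because mice carry no numbers in the labels that link them across groups. In BEC-like cells, Vcam1, Tnfaip3 and Tnfaip2 kept their direction and their call in all 22 alternatives with a test, and Tnip3 in 19 (1.24 to 2.73, adjusted p up to 0.120). Nfkb1 lost its call in 6 of 22 (adjusted p up to 0.124) and Birc3 in 10 of 22 (0.19 to 0.70, adjusted p up to 0.404), all with the same direction. Members called numbered 6, with 3 in sublibraries 1 and 8 alone, 4 to 7 in the other sublibraries, 7 with DESeq2, 4 without TMM, 8 without a filter on low counts, and 4 to 8 with 1 library left out. Those with DESeq2, without TMM and without a filter stand without the number of all genes called there, so they are not read alone. Genes called numbered 4339, and 1353 to 6628 with 1 library left out. In sublibraries 1 to 8 alone they numbered 618, 2282, 1856, 2187, 1968, 1988, 2267 and 1810, from fewer cells. Nfkbia (-0.04) changed sign, with no call, to 0.038 with DESeq2, 0.094 without a filter, 0.10 in the libraries whose group names match, 0.019 over all cells and 0.040 in sublibrary 6, and ran from -0.096 to 0.054 with 1 library left out. The share of cells with Nfkb2 turned from -5.38 to 18.8 percentage points without thinning.

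In mesenchymal-like cells 455 genes were called, 1009 without a filter, and 31 to 821 with 1 library left out; members called were 0 without BDL replicate 2 and at most 3 otherwise. Over the left-out libraries Tnfaip3 ran from -0.064 to 1.27 and Tnfaip2 from -0.26 to 1.31, both lowest without BDL replicate 2. In endothelial-like cells 31 genes were called, 17 with DESeq2, 52 without a filter and 1 to 48 with 1 library left out. For the difference from mesenchymal-like cells, 640 genes and 3 members were called, 411 and 1 without the library block, and 289 to 763 genes and 1 to 4 members with 1 library left out. Uncalled differences that changed sign with a library left out ran from -0.23 to 7.22 for Tnip3, -0.071 to 0.24 for Nfkbia, -0.40 to 0.13 for Nfkb1 and -0.42 to 0.22 for Nfkb2. For the difference from endothelial-like cells, 104 genes were called, 17 to 119 with 1 library left out, with 0 to 1 members; Tnip3 ran from -5.50 to 9.11 and Tnfaip2 from -0.58 to 1.26. The cause of these changes was not tested, except that sublibraries and left-out libraries hold fewer cells or samples. Precision is limited by 2 mice per group and by low UMI totals outside BEC-like cells.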
